A study of Mus musculus with 21 samples.

Results

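Cumulus-oocyte complexes (COCs) are oocytes still wrapped in their cumulus granulosa cells. The libraries described here follow COCs matured in culture under a proprotein convertase inhibitor (PCI) between 4 and 8 h: 3 libraries taken after 8 h with the inhibitor (PCI 8 h) and 3 taken after 4 h with it (PCI 4 h). They were chosen by their labels and column names alone, and are 6 of 21 libraries in the study. All complexes were WT and came from mouse ovary. Every culture held alpha-MEM, 5% serum, HEPES, pyruvate and mouse epidermal growth factor (EGF) under 5% CO2, so EGF was present in both groups, and the inhibitor was used at 10 µM. The matching solvent arm (CTL 8 h and CTL 4 h, 3 libraries each) received DMSO without inhibitor and serves as the comparison. Uncultured COCs (START) and both arms at 12 h make up the remaining groups, each with 3 libraries. The study concerns what these enzymes do for the matrix around the oocyte and for the cumulus cells, through the oocyte factor GDF9. The sources used here do not give the compound's name, the mouse strain, age or hormone treatment, or the number of COCs pooled in a library. Replicates are labelled as biological, with no word on separate animals or cultures, so the p-values measure the spread between these samples.

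Proprotein convertases are proteases of the secretory pathway that cut precursor proteins, among them members of the TGF-beta family such as GDF9 and BMP15, which the oocyte secretes to its cumulus cells. In cumulus expansion, EGF-like signals and oocyte factors switch on the genes for a hyaluronan matrix: hyaluronan is spun out by HAS2 and crosslinked by the TNFAIP6 protein, serum-derived heavy chains and pentraxin 3. At the same time the oocyte resumes meiosis, makes little new RNA, and uses or degrades the messages it stored while growing.

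Total counts in the 6 libraries ran from 21470072 to 34329782, and levels are given as CPM, a gene's counts in 1000000 counts of its library after TMM scaling, which adjusts for library composition. Oocyte and granulosa markers were abundant in every library, as the label COC calls for. PCI 4 h replicate 2 stood apart: its 25 oocyte markers summed to 25790 CPM, against 11280 and 7122 CPM in the other PCI 4 h libraries, and PCI 8 h gave 6836, 8265 and 9990 CPM. The log2 ratio of the group means was -0.82 over all 6 libraries (exact permutation test, two-sided, p = 0.3, where 3 against 3 cannot go below 0.1), and -0.14 without that library. In bulk RNA, fewer cells of a type and less RNA per cell cannot be told apart. Granulosa and cumulus markers summed to 6995, 6749 and 6738 CPM at PCI 8 h, against 13130, 8031 and 14170 CPM at PCI 4 h. Of the 10 markers 3 were called lower, Has2, Inhba and Fshr, and 0 higher, where 15.2% of all genes were called lower. The falls of Has2 and Inhba, given below, enter this sum, and their part in it was not tested. Markers of other cells were low. Theca markers gave 87.1, 89.1 and 59.2 CPM at PCI 8 h, against 60.7, 37.4 and 46.4 CPM at PCI 4 h, with Insl3 at 0, and stroma markers 7.13 to 13.8 CPM against 4.36 to 5.46 CPM, with Lum at 0. Leukocyte markers summed to 3.96 to 15.3 CPM at PCI 8 h and 1.61 to 2.27 CPM at PCI 4 h, and surface epithelium markers to 85.3 to 133.5 CPM and 64.1 to 107.3 CPM. Endothelial markers overlapped. Of the red cell markers only Alas2, a haem synthesis gene, passed the filter, with 2.34, 1.73 and 2.79 CPM at PCI 8 h, against 23.9, 7.68 and 19.9 CPM at PCI 4 h, and it was called lower, while Hba-a2, Hbb-bs and Hbb-bt were at 0. The part of these markers in the results was not tested. Mitochondrial transcripts took 0.423, 0.347 and 0.312% of counts at PCI 8 h, against 0.411, 0.258 and 0.412% at PCI 4 h.

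Between 4 and 8 h under the inhibitor, the hyaluronan matrix genes Has2, Tnfaip6 and Ptx3, the EGF-like ligands Areg and Btc and 11 of 25 oocyte markers fell. Of the gene lists, 11 of 17 contractile, 13 of 23 lysosomal, 11 of 23 cholesterol and 7 of 16 steroid genes rose, and so did the collagens Col4a1 and Col4a2. Of 18192 genes tested, 2230 (12.3%) were higher and 2762 (15.2%) lower at PCI 8 h (edgeR quasi-likelihood F test, Benjamini-Hochberg adjusted p under 0.05, which is what "called" means throughout). Where a list's counts lie near these shares, they say nothing particular about the list. Most genes named under a list are among its up to 4 members with the smallest p in this same comparison. Their separation between the groups follows in part from that choice and does not describe the list. The falls were deeper: 1212 genes fell and 289 rose by more than 4-fold, and the median log2 fold change was -1.77 over the called falls and 0.92 over the called rises. Over all genes it was -0.05. Of the 1420 long noncoding RNA genes tested, 31 rose and 274 fell, against 2152 and 2323 of 14854 protein-coding genes. Without PCI 4 h replicate 2 the counts were 1458 higher and 1631 lower, and without PCI 8 h replicate 1 there were 1742 lower.

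Of 9 measured genes of hyaluronan matrix assembly 4 were called lower and 0 higher, and the median log2 fold change of the list was -0.71. The number called higher was 2 without PCI 8 h replicate 3, 1 without PCI 4 h replicate 3 and 2 with DESeq2. Has2 (ENSMUSG00000022367, mm39 chr15:56529023-56557935), the chief hyaluronan synthase gene of the cumulus, had 91.3, 52.6 and 196 CPM in the PCI 8 h libraries, against 968, 736 and 548 CPM in the PCI 4 h libraries. All PCI 8 h libraries lay below all PCI 4 h libraries (log2 fold change -2.73 ± 0.37 (SE), adjusted p = 8.79e-05). Tnfaip6 (ENSMUSG00000053475, mm39 chr2:51928021-51946698), whose product transfers heavy chains onto hyaluronan, had 591, 486 and 529 CPM at PCI 8 h, against 3163, 2068 and 2112 CPM at PCI 4 h (log2 fold change -2.19 ± 0.25 (SE), adjusted p = 2.35e-05). Ptx3, the pentraxin that ties those heavy chains together, had 678, 466 and 1166 CPM at PCI 8 h, against 3374, 1997 and 3119 CPM at PCI 4 h (log2 fold change -1.88 ± 0.33 (SE), adjusted p = 5.04e-04). For both genes the groups were clearly apart, and the lowest PCI 4 h library was well above the highest PCI 8 h library. The minor synthase Has1 followed at 1.45 ± 0.334 CPM at PCI 8 h and 7.63 ± 1.25 CPM at PCI 4 h (SD, n = 3 each; log2 fold change -2.40 ± 0.45 (SE), adjusted p = 8.25e-04). Vcan, the proteoglycan versican that binds hyaluronan, had 1186, 927 and 745 CPM at PCI 8 h, against 658, 374 and 610.3 CPM at PCI 4 h. Every 8 h library was above every 4 h library, but the gene was not called (log2 fold change 0.80 ± 0.29 (SE), adjusted p = 0.0504). Without PCI 8 h replicate 3 Vcan was called, with a log2 fold change of 0.95, and that of Has2 was -3.38.

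At 8 h Tnfaip6 and Has2 were still above their uncultured levels. Tnfaip6 had 13.2, 11.4 and 11.8 CPM in START libraries and 314, 249.5 and 208 CPM at PCI 12 h, with the PCI 8 h values between the 4 h and 12 h levels. Has2 had 12.3, 12.9 and 15.0 CPM at START and 25.6, 19.2 and 23.1 CPM at PCI 12 h.

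The promoters of Tnfaip6 and Areg are shown because these genes fell and because each holds a recognition motif of signal-driven factors. The windows run from 250 bases before to 50 after the gene start, from RefSeq on GRCm38.p6, and the capitals mark the motif, which reads the same on both strands and overlaps no other motif searched. Tnfaip6 (chr2:52037863-52038162, plus strand) holds an AP-1 motif, TGANTCA, 142 bases before the start, and Areg (chr5:91139349-91139648, plus strand) holds a full cAMP response element, TGACGTCA, 61 bases before it.

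Tnfaip6: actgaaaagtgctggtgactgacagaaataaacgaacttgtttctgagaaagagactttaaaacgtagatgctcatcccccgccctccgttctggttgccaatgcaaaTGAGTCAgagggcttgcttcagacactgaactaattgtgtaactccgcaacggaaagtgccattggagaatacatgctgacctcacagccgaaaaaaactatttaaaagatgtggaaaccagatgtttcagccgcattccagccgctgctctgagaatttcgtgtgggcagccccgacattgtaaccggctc

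Areg: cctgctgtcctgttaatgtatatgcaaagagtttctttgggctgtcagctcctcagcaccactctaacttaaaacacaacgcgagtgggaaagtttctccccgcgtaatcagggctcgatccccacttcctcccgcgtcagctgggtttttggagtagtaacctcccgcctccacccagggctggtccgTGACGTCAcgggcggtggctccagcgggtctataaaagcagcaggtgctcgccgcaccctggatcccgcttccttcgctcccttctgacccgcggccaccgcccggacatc

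Searched on both strands, TGANTCA occurred in 5.63% and TGACGTCA in 2.93% of 12495 promoters of tested genes. Among the 14 panel genes with a window, each motif occurred in 1. The 11 of 12 largest rises with a window held neither motif, nor CAAGGTCA or CAAGGCCA, the NR5A sequences found in 2.94% of promoters, nor the E2F sequence TTTCCCGC, found in 1.89%. Of the 9 largest falls with a window, Clec12a held TGANTCA and Ggt1 an NR5A sequence. A match describes these letters and not a bound site, and the search of the panel was added after its values were seen.

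**Figure D1:**
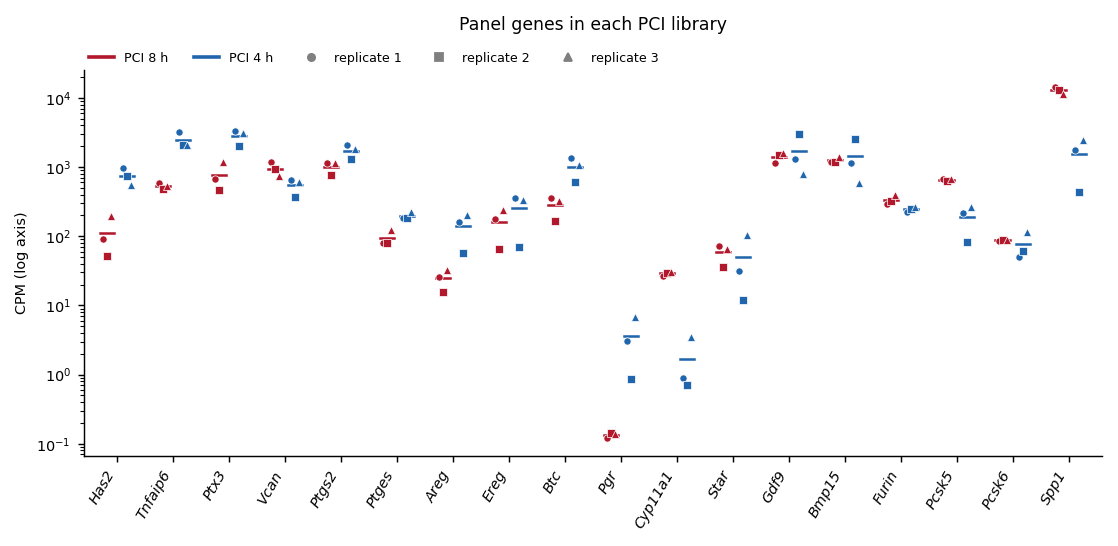
CPM on a log axis of 18 genes of cumulus expansion, EGF and prostaglandin signalling, steroid synthesis, oocyte factors and convertases in each PCI library. Points are libraries, shapes replicate numbers and bars group means; the PCI 8 h points lie left of the PCI 4 h points of each gene, with Has2 at 52.7 to 196 CPM against 548 to 968 CPM and Cyp11a1 at 27.0 to 30.8 CPM against 0.698 to 3.47 CPM.

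Of 12 genes in the EGF list, the ligands Areg and Btc were called lower and the receptors Erbb2 and Erbb3 higher. Both shares lie near those of all genes, 15.2% lower and 12.3% higher. Areg, the amphiregulin gene that relays the ovulatory signal to cumulus cells, had 26.1, 15.5 and 33.0 CPM in the PCI 8 h libraries, against 159, 56.8 and 205 CPM in the PCI 4 h libraries. The groups did not overlap, although PCI 4 h replicate 2 was well below the other PCI 4 h libraries (log2 fold change -2.50 ± 0.45 (SE), adjusted p = 6.55e-04). Btc, encoding betacellulin, had 362, 165 and 321 CPM at PCI 8 h, against 1373, 599 and 1071 CPM at PCI 4 h (log2 fold change -1.84 ± 0.35 (SE), adjusted p = 8.93e-04). Ereg, encoding epiregulin, overlapped between the groups, with 179, 66.5 and 243 CPM at PCI 8 h, against 360, 68.9 and 333 CPM at PCI 4 h (log2 fold change -0.64 ± 0.53 (SE), adjusted p = 0.407). Erbb2, a signalling partner of the EGF receptor, had 118, 134 and 104 CPM at PCI 8 h, against 63.9, 40.4 and 73.3 CPM at PCI 4 h (log2 fold change 1.00 ± 0.25 (SE), adjusted p = 0.00611). Erbb3 was called at the margin (0.78 ± 0.28, adjusted p = 0.0433) and lost the call whichever PCI library was left out, with log2 fold changes of 0.60 to 0.90.

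Of 13 prostaglandin genes Ptges and Ptgs2 were called lower, a share near that of all genes, and 0 higher. The number called higher was 1 without PCI 8 h replicate 3 or PCI 4 h replicate 2 and 2 without PCI 4 h replicate 3. Ptges, the terminal synthase of prostaglandin E2, had 79.2, 81.0 and 123 CPM at PCI 8 h, against 186, 186 and 220.4 CPM at PCI 4 h, with no overlap between the groups (log2 fold change -1.06 ± 0.25 (SE), adjusted p = 0.00447). Ptgs2, the inducible cyclooxygenase, had 1131, 772 and 1142 CPM at PCI 8 h, against 2051, 1301 and 1849 CPM at PCI 4 h and was called lower (log2 fold change -0.77 ± 0.26 (SE), adjusted p = 0.0332). It missed the threshold without any one of PCI 8 h replicate 1 or 2 or PCI 4 h replicate 1 or 3, with log2 fold changes of -0.60 to -0.86.

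Early-response and ERK-feedback genes split. Among 22 immediate-early factors 3 rose and 6 fell, and among 16 genes of ERK feedback 3 rose and 5 fell. Dusp5, a nuclear phosphatase of ERK, had 32.8, 29.4 and 70.9 CPM at PCI 8 h, against 213, 223 and 174 CPM at PCI 4 h (log2 fold change -2.20 ± 0.29 (SE), adjusted p = 7.08e-05). Dusp10 had 15.2, 16.1 and 18.8 CPM at PCI 8 h, against 41.7, 49.0 and 40.4 CPM at PCI 4 h (log2 fold change -1.39 ± 0.20 (SE), adjusted p = 1.57e-04). Spry2, a feedback inhibitor of receptor tyrosine kinase signalling, had 3.72, 2.22 and 4.55 CPM at PCI 8 h, against 11.2, 8.97 and 12.9 CPM at PCI 4 h (log2 fold change -1.66 ± 0.30 (SE), adjusted p = 7.44e-04). In all these genes the 8 h libraries lay below every 4 h library. Egr2, a zinc finger factor, rose, with 90.2, 86.6 and 66.0 CPM at PCI 8 h, against 15.0, 22.3 and 17.6 CPM at PCI 4 h (log2 fold change 2.14 ± 0.32 (SE), adjusted p = 1.66e-04). The AP-1 subunit gene Fosl2 rose too, with 344, 320.2 and 300.1 CPM at PCI 8 h, against 108, 90.5 and 168 CPM at PCI 4 h (log2 fold change 1.39 ± 0.25 (SE), adjusted p = 6.49e-04). Its relative Fosl1 fell (2.31 ± 1.55 CPM at PCI 8 h and 8.29 ± 3.26 CPM at PCI 4 h, SD; log2 fold change -1.85 ± 0.44 (SE), adjusted p = 0.00452), and without PCI 8 h replicate 3 its log2 fold change was -2.50. With only the 6 libraries compared Fosl1 was not called (adjusted p = 0.0502). Without PCI 8 h replicate 1 or 2 the immediate-early falls numbered 3 and 2, and without PCI 4 h replicate 3 the rises numbered 5. Without PCI 8 h replicate 1 or 2 or PCI 4 h replicate 1 there was 1 rise in ERK feedback.

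Transcription regulators of the ovulatory follicle changed in both directions, with 3 of 14 higher and 3 lower. Pgr, the progesterone receptor that granulosa cells need for ovulation, was near the limit of detection at 8 h, with 0.121, 0.144 and 0.139 CPM at PCI 8 h, against 3.03, 0.873 and 6.78 CPM at PCI 4 h (log2 fold change -4.67 ± 0.76 (SE), adjusted p = 3.24e-04). PCI 4 h replicate 3 held the highest value, and without it the log2 fold change was -3.80. Cebpa, a differentiation factor, had 18.6, 23.4 and 33.5 CPM at PCI 8 h, against 127, 67.3 and 183 CPM at PCI 4 h (log2 fold change -2.32 ± 0.34 (SE), adjusted p = 1.51e-04). Runx2 had 334, 267 and 233 CPM at PCI 8 h, against 77.8, 24.8 and 138 CPM at PCI 4 h (log2 fold change 1.79 ± 0.43 (SE), adjusted p = 0.00471), and 2.44 on the log2 scale without PCI 4 h replicate 3. With only the 6 libraries compared Runx2 was not called (adjusted p = 0.0525). Nrip1, a corepressor of nuclear receptors required for ovulation, rose to 317, 296 and 227 CPM at PCI 8 h, against 144, 148 and 157 CPM at PCI 4 h (log2 fold change 0.91 ± 0.17 (SE), adjusted p = 8.13e-04).

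Of 21 ligands and receptors of the TGF-beta family 7 rose and 2 fell, while Gdf9 and Bmp15 were not called. The list median was -0.18, with 11 members below 0. Gdf9 had 1154, 1509 and 1586 CPM at PCI 8 h, against 1314, 3019 and 792 CPM at PCI 4 h (log2 fold change -0.27 ± 0.43 (SE), adjusted p = 0.698). Bmp15 had 1187, 1177 and 1410 CPM at PCI 8 h, against 1146, 2528 and 598 CPM at PCI 4 h (log2 fold change -0.18 ± 0.45 (SE), adjusted p = 0.815). Both belong to the oocyte markers summed above and were highest in PCI 4 h replicate 2. Without that library the log2 fold changes were 0.45 for Gdf9 and 0.55 for Bmp15, neither called. The receptor Tgfbr1, through which GDF9 signals, had 984, 847 and 499 CPM at PCI 8 h, against 178, 122 and 204 CPM at PCI 4 h (log2 fold change 2.21 ± 0.30 (SE), adjusted p = 9.11e-05). Bmpr1a, a BMP type I receptor, had 238, 194 and 205 CPM at PCI 8 h, against 133, 120.2 and 122 CPM at PCI 4 h (log2 fold change 0.76 ± 0.14 (SE), adjusted p = 6.49e-04). Bmp4 had 25 counts over the PCI 8 h libraries and none over the PCI 4 h libraries, at least 9.29-fold higher against 3 counts over the group. The rises numbered 4 without PCI 8 h replicate 1, 4 without PCI 4 h replicate 1 and 3 without PCI 4 h replicate 2. The falls numbered 0 without PCI 8 h replicate 1 or 3 or PCI 4 h replicate 1, 1 without PCI 8 h or PCI 4 h replicate 2 and 4 without PCI 4 h replicate 3.

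SMAD target genes gave no single direction. Among 12 targets of the BMP branch 1 rose and 3 fell, and among 14 of the activin and TGF-beta branch 2 rose and 2 fell. Bambi, a decoy receptor, had 39.2, 34.9 and 35.2 CPM at PCI 8 h, against 113, 79.7 and 70.3 CPM at PCI 4 h (log2 fold change -1.27 ± 0.21 (SE), adjusted p = 3.18e-04). Inhba, the activin subunit gene, had 1045, 820.1 and 1131 CPM at PCI 8 h, against 3854, 2110 and 4639 CPM at PCI 4 h (log2 fold change -1.82 ± 0.33 (SE), adjusted p = 6.76e-04). Ccn1, a matricellular protein gene, rose to 149, 133 and 168 CPM at PCI 8 h, against 19.9, 28.2 and 15.9 CPM at PCI 4 h (log2 fold change 2.81 ± 0.28 (SE), adjusted p = 7.42e-06) and no overlap. Its relative Ccn2 was called higher with overlapping libraries (2.03 ± 0.49, adjusted p = 0.00472), and was at 2.66 on the log2 scale without PCI 4 h replicate 2. Ccn2 was not called with limma voom, with only the 6 libraries compared, or with the mean oocyte marker level as a covariate. Of the BMP targets only Atoh8 was called higher, at 1.17, 2.28 and 0.930 CPM at PCI 8 h, against 0, 0.105 and 0.165 CPM at PCI 4 h, with a log2 fold change of 3.98, or 4.74 without PCI 4 h replicate 3. Without PCI 8 h replicate 1 or 2 or PCI 4 h replicate 1 there was 1 BMP target called lower.

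The convertases themselves were measured as messages, which do not show enzyme activity, and 2 of 8 measured rose while 0 fell. Pcsk5 (ENSMUSG00000024713, mm39 chr19:17409683-17814996), a convertase of the secretory pathway, had 665, 633 and 662 CPM in the PCI 8 h libraries, against 214, 82.5 and 266 CPM in the PCI 4 h libraries. The 8 h libraries were nearly equal and all above the 4 h libraries (log2 fold change 1.80 ± 0.32 (SE), adjusted p = 5.77e-04). Furin, the ubiquitous convertase, had 295, 322 and 392 CPM at PCI 8 h, against 227, 249 and 264 CPM at PCI 4 h and was not called (log2 fold change 0.44 ± 0.19 (SE), adjusted p = 0.0983). Pcsk6 overlapped, with 85.4, 89.3 and 87.5 CPM at PCI 8 h, against 50.2, 61.6 and 116 CPM at PCI 4 h (log2 fold change 0.20 ± 0.23 (SE), adjusted p = 0.570). Pcsk7 was called higher (0.54 ± 0.15, adjusted p = 0.0136), but not without PCI 4 h replicate 2, where its log2 fold change was 0.45.

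Matrix-remodelling genes rose more often than they fell: of 21 proteases and inhibitors 8 were higher and 2 lower, with a list median of 0.33. Mmp14, a membrane metalloprotease, had 239, 269 and 259 CPM at PCI 8 h, against 92.2, 50.3 and 101 CPM at PCI 4 h (log2 fold change 1.66 ± 0.26 (SE), adjusted p = 2.31e-04). Mmp11, a secreted metalloprotease, had 115, 107 and 68.0 CPM at PCI 8 h, against 23.4, 18.3 and 31.8 CPM at PCI 4 h (log2 fold change 1.98 ± 0.34 (SE), adjusted p = 4.22e-04). Plaur, the urokinase receptor gene, fell, with 15.2, 8.54 and 30.8 CPM at PCI 8 h, against 98.97, 71.2 and 110 CPM at PCI 4 h (log2 fold change -2.37 ± 0.35 (SE), adjusted p = 1.76e-04), and the value was -2.97 without PCI 8 h replicate 3. Cemip, a hyaluronan-degrading protein gene, had 78 counts over the PCI 8 h libraries and 0 over the PCI 4 h libraries, at least 29.0-fold higher against 3 counts over the group. At 0.646, 1.501 and 0.465 CPM its level at 8 h was low. Adamts1, which cleaves versican, was among the falls (261 ± 54.4 CPM at PCI 8 h and 738 ± 166 CPM at PCI 4 h, SD, n = 3 each; log2 fold change -1.499 ± 0.27 (SE), adjusted p = 6.53e-04) and was looked up after its call was seen. The rises numbered 4 without PCI 8 h replicate 1 or 2 and 5 without PCI 4 h replicate 1 or 2.

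Basement membrane and adhesion genes rose in part. Of 19 basement membrane genes 6 rose and 2 fell, with a list median of -0.11 and 12 members below 0. Col4a1, a collagen IV chain, had 417, 418 and 624 CPM at PCI 8 h, against 139.9, 116 and 161 CPM at PCI 4 h (log2 fold change 1.81 ± 0.32 (SE), adjusted p = 5.62e-04). Its partner Col4a2 had 180.5, 196 and 303 CPM at PCI 8 h, against 66.6, 53.5 and 67.0 CPM at PCI 4 h (log2 fold change 1.86 ± 0.27 (SE), adjusted p = 1.38e-04). For both chains every 8 h library was above every 4 h library. Hspg2, the perlecan gene, had 57.9, 48.8 and 45.2 CPM at PCI 8 h, against 19.3, 10.9 and 26.3 CPM at PCI 4 h (log2 fold change 1.43 ± 0.27 (SE), adjusted p = 0.00106). The laminin chain Lama4 fell, with 5.25, 4.88 and 12.0 CPM at PCI 8 h, against 55.7, 51.2 and 29.9 CPM at PCI 4 h (log2 fold change -2.64 ± 0.47 (SE), adjusted p = 6.11e-04). Among 19 integrins and matricellular genes 6 rose and 2 fell, with a list median of -0.14 and 11 members below 0. Spp1 (ENSMUSG00000029304, mm39 chr5:104582984-104588916), which encodes osteopontin, reached 14290, 13030 and 11200 CPM at PCI 8 h, against 1767, 442 and 2479 CPM at PCI 4 h (log2 fold change 3.04 ± 0.41 (SE), adjusted p = 9.80e-05). The PCI 8 h libraries were within a narrow range, and all were far above the PCI 4 h libraries. Itgb3, an integrin subunit that binds osteopontin, had 279, 208 and 276 CPM at PCI 8 h, against 81.2, 59.7 and 131 CPM at PCI 4 h (log2 fold change 1.49 ± 0.30 (SE), adjusted p = 0.00151). Without PCI 4 h replicate 2, 3 genes of the integrin list were called higher and 1 of basement membrane lower, and 1 also without PCI 8 h replicate 1. Falls in the integrin list numbered 0 without PCI 8 h replicate 2 and 1 without PCI 8 h replicate 1 or 3 or PCI 4 h replicate 1 or 3.

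Genes of the contractile cytoskeleton (actin, SRF and YAP genes) showed the highest share of rises of all 38 lists, with 11 of 17 higher and 1 lower and a list median of 1.43. Cald1, the caldesmon gene, had 185, 154 and 178 CPM at PCI 8 h, against 31.9, 21.3 and 30.1 CPM at PCI 4 h (log2 fold change 2.63 ± 0.20 (SE), adjusted p = 4.70e-07). Cnn2, a calponin gene, had 34.0, 53.3 and 33.0 CPM at PCI 8 h, against 2.81, 2.83 and 4.13 CPM at PCI 4 h (log2 fold change 3.62 ± 0.39 (SE), adjusted p = 1.14e-05). Vcl, encoding vinculin, had 250.4, 269 and 189 CPM at PCI 8 h, against 84.3, 69.0 and 91.2 CPM at PCI 4 h (log2 fold change 1.53 ± 0.24 (SE), adjusted p = 2.21e-04). Each of these, picked by its small p in this comparison, had its lowest 8 h library well above its highest 4 h library. The single fall was Actg2, a smooth muscle actin gene (0.192 ± 0.238 CPM at PCI 8 h and 2.01 ± 0.981 CPM at PCI 4 h, SD, n = 3 each; log2 fold change -3.48 ± 0.79 (SE), adjusted p = 0.00343), named after its call was seen. Ccn1 and Ccn2 belong to this list and to the TGF-beta targets. The rises numbered 10 without PCI 4 h replicate 2, at the fewest 9 with 1 library left out, and 7 with only the 6 libraries compared.

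Of 16 genes of steroid synthesis and conversion 7 rose and 1 fell, with a list median of 0.43. Cyp11a1 (ENSMUSG00000032323, mm39 chr9:57913694-57934306), the first enzyme of the pathway, which cleaves the cholesterol side chain, had 27.0, 29.1 and 30.8 CPM in the PCI 8 h libraries, against 0.893, 0.698 and 3.47 CPM in the PCI 4 h libraries. The 8 h values were nearly equal, and the nearest 4 h library, replicate 3, was far below them (log2 fold change 4.10 ± 0.80 (SE), adjusted p = 0.00125; 5.17 on the log2 scale without that library). Star, which carries cholesterol into the mitochondrion, overlapped, with 73.4, 35.9 and 65.3 CPM at PCI 8 h, against 31.4, 11.9 and 106 CPM at PCI 4 h (log2 fold change 0.23 ± 0.52 (SE), adjusted p = 0.795). Without PCI 4 h replicate 3 it was called higher, with a log2 fold change of 1.43. Akr1c18, whose enzyme inactivates progesterone, had 49.5, 131 and 27.3 CPM at PCI 8 h, against 3.32, 1.08 and 3.14 CPM at PCI 4 h (log2 fold change 4.78 ± 0.86 (SE), adjusted p = 6.80e-04). Akr1c14, a 3-alpha-hydroxysteroid dehydrogenase gene, had 223, 363 and 58.6 CPM at PCI 8 h, against 10.8, 7.68 and 10.6 CPM at PCI 4 h (log2 fold change 4.47 ± 0.68 (SE), adjusted p = 1.95e-04). Both spread widely at 8 h, and without PCI 8 h replicate 2 their log2 fold changes were 3.94 and 3.87. Srd5a1, a steroid 5-alpha-reductase gene, had 19.9, 17.9 and 9.06 CPM at PCI 8 h, against 2.49, 2.44 and 4.96 CPM at PCI 4 h (log2 fold change 2.24 ± 0.31 (SE), adjusted p = 1.08e-04). The single fall was Hsd11b2, a glucocorticoid-inactivating enzyme gene (-1.35 ± 0.36, adjusted p = 0.0102). The rises of the list numbered 5 to 9 with 1 library left out and 5 with only the 6 libraries compared. The Akr1c and Hsd3b genes have close copies, so their counts are uncertain to that extent.

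Of the 23 genes of cholesterol synthesis and uptake 11 rose and 1 fell, with a list median of 0.61. Lss, lanosterol synthase, had 50.3, 48.1 and 56.8 CPM at PCI 8 h, against 22.4, 14.9 and 24.6 CPM at PCI 4 h (log2 fold change 1.33 ± 0.21 (SE), adjusted p = 2.70e-04). Acat2, an early enzyme of the pathway, had 78.6, 86.5 and 99.9 CPM at PCI 8 h, against 39.2, 16.6 and 43.2 CPM at PCI 4 h (log2 fold change 1.42 ± 0.30 (SE), adjusted p = 0.00213). Ebp, a sterol isomerase gene, had 31.8, 39.1 and 30.7 CPM at PCI 8 h, against 15.6, 8.90 and 20.8 CPM at PCI 4 h (log2 fold change 1.16 ± 0.26 (SE), adjusted p = 0.00289). In these genes the 8 h libraries all lay above the 4 h libraries. Fdft1, squalene synthase, was the exception, with 87.6, 98.5 and 112 CPM at PCI 8 h, against 223, 419 and 177 CPM at PCI 4 h (log2 fold change -1.46 ± 0.25 (SE), adjusted p = 5.04e-04). Its PCI 4 h value was highest in replicate 2, the library richest in oocyte markers. Without that library 6 members were called higher, and without PCI 8 h replicate 1 also 6. With the mean level of the oocyte markers as a covariate the list had 7 rises, and with only the 6 libraries compared 5. The part of oocyte content in these changes was not tested.

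Of 23 lysosomal genes 13 rose and 0 fell, with a list median of 0.61. Npc2, a cholesterol carrier of the lysosome, had 93.2, 109 and 82.1 CPM at PCI 8 h, against 57.6, 54.4 and 62.0 CPM at PCI 4 h (log2 fold change 0.71 ± 0.13 (SE), adjusted p = 8.07e-04). Gla, alpha-galactosidase, had 71.7, 68.8 and 55.1 CPM at PCI 8 h, against 32.5, 19.0 and 37.3 CPM at PCI 4 h (log2 fold change 1.14 ± 0.23 (SE), adjusted p = 0.00137). Mcoln1, a lysosomal calcium channel gene, had 82.3, 90.5 and 70.8 CPM at PCI 8 h, against 52.6, 61.2 and 46.2 CPM at PCI 4 h (log2 fold change 0.61 ± 0.13 (SE), adjusted p = 0.00236). The increases were small and the groups did not overlap. Mcoln1 was not called with only the 6 libraries compared (adjusted p = 0.0566). Without PCI 4 h replicate 2, 8 members were called. With the oocyte marker covariate 8 were called higher and 2 lower, and with only the 6 libraries compared 6 were called higher.

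Called genes of the cell cycle were mostly lower. Of 22 genes of the G1/S step and DNA replication 8 fell and 1 rose, with a median of -0.36. Of 20 of the G2/M step and the spindle 5 fell and 0 rose, but the median was -0.008, with 10 members above 0 and 10 below. Ccnd2, the cyclin D of granulosa cells, had 60.1, 50.1 and 65.8 CPM at PCI 8 h, against 194, 108 and 181 CPM at PCI 4 h (log2 fold change -1.46 ± 0.23 (SE), adjusted p = 2.70e-04). Cdc6, a licensing factor, had 14.7, 20.3 and 24.3 CPM at PCI 8 h, against 43.7, 59.0 and 42.7 CPM at PCI 4 h (log2 fold change -1.29 ± 0.23 (SE), adjusted p = 5.93e-04). Mcm5, a helicase subunit gene, had 117, 123 and 101 CPM at PCI 8 h, against 155, 197 and 161 CPM at PCI 4 h (log2 fold change -0.59 ± 0.12 (SE), adjusted p = 0.00188). In these genes every 8 h library lay below every 4 h library. Mcm7, another helicase subunit gene, was the only one called higher (166 ± 16.5 CPM at PCI 8 h and 118 ± 4.76 CPM at PCI 4 h, SD; log2 fold change 0.50 ± 0.14 (SE), adjusted p = 0.0130), and is named for that reason. Ttk, a spindle checkpoint kinase gene, had 47.6, 45.1 and 52.6 CPM at PCI 8 h, against 182, 326 and 146 CPM at PCI 4 h (log2 fold change -2.17 ± 0.31 (SE), adjusted p = 1.33e-04), with PCI 4 h replicate 2 highest. Without that library 4 replication genes and 3 G2/M genes were called lower, and without PCI 8 h replicate 1 also 3 G2/M genes.

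Of 22 genes of glycolysis and the hypoxia response 5 rose and 1 fell. Pfkl, the liver-type phosphofructokinase gene, had 170.5, 159 and 144 CPM at PCI 8 h, against 44.4, 31.9 and 59.4 CPM at PCI 4 h (log2 fold change 1.80 ± 0.22 (SE), adjusted p = 4.39e-05). Hk1, hexokinase 1, had 78.9, 75.5 and 106 CPM at PCI 8 h, against 33.0, 16.5 and 47.0 CPM at PCI 4 h (log2 fold change 1.43 ± 0.32 (SE), adjusted p = 0.00282). Slc2a1, the glucose transporter GLUT1, fell, with 138, 129 and 160.4 CPM at PCI 8 h, against 255, 159 and 265 CPM at PCI 4 h and overlapping libraries (log2 fold change -0.67 ± 0.17 (SE), adjusted p = 0.00854). It was not called with only the 6 libraries compared (adjusted p = 0.0681). Of 21 nuclear genes of the respiratory chain 3 were called higher, among them Uqcrc2 (0.42 ± 0.12, adjusted p = 0.0119) and Sdha (0.42 ± 0.14, adjusted p = 0.0301). None of the 10 mitochondrially encoded genes was called, and 1 of 28 ribosomal protein genes was, Rpl5 (-0.70 ± 0.12, adjusted p = 5.23e-04). Sdha lost its call without PCI 8 h replicate 1 or 2 or PCI 4 h replicate 2, at log2 fold changes of 0.40 to 0.41. Without PCI 4 h replicate 3 the list had 7 rises, and without PCI 4 h replicate 1 the glycolysis list had 3.

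**Figure D2:**
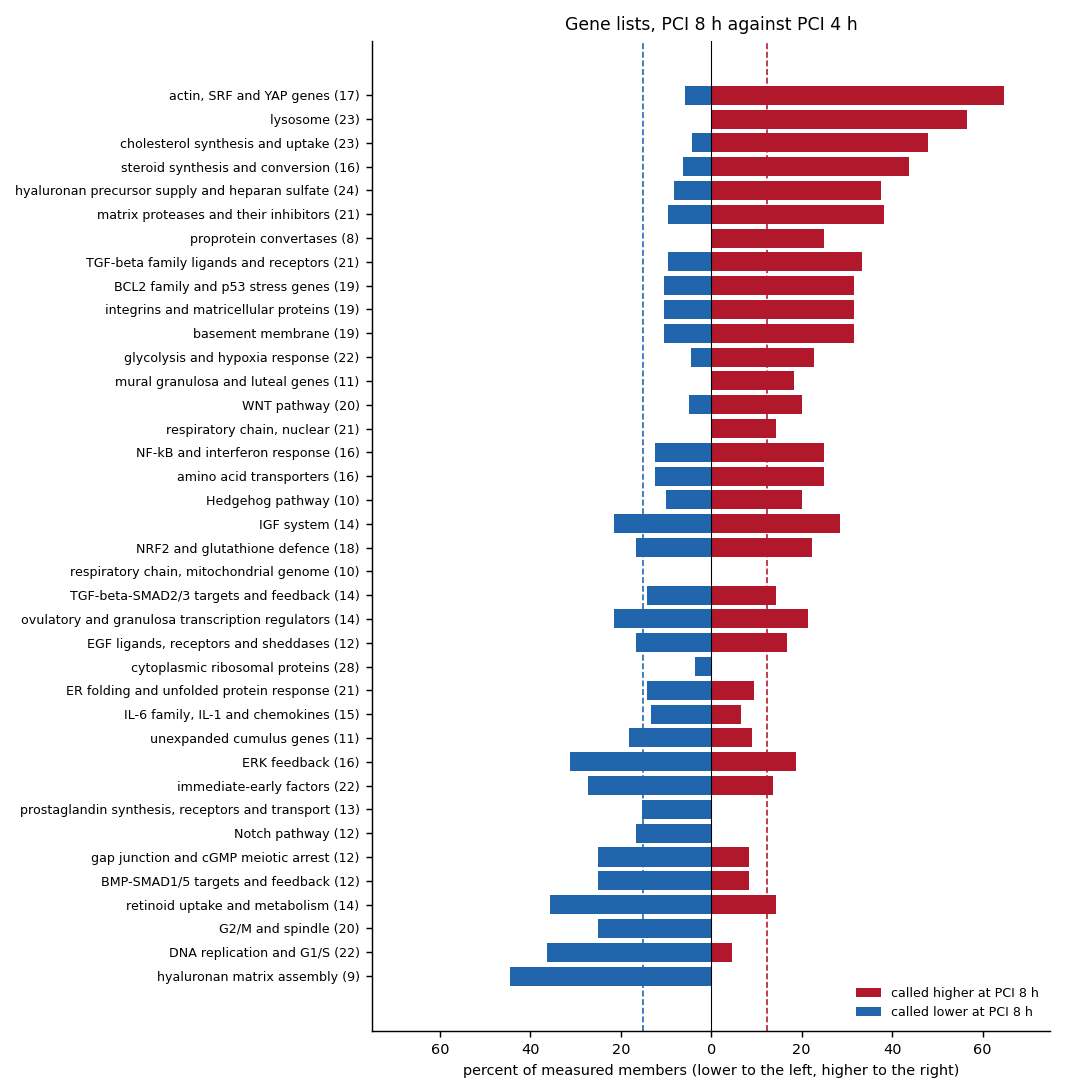
Share of measured members called higher (to the right) and lower (to the left) at PCI 8 h against PCI 4 h in 38 gene lists, with the number of measured members in brackets. Dashed lines are the shares of all genes, 12.3% higher and 15.2% lower; contractile, lysosomal and cholesterol genes reach farthest to the right and hyaluronan matrix genes farthest to the left.

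Some oocyte transcripts fell and others overlapped between the times. Of 25 oocyte markers 11 were called lower and 0 higher in CPM, and without PCI 4 h replicate 2 the number was 6, without PCI 8 h replicate 1 or 2 it was 7. In all, 20.2% of genes had every 8 h library below every 4 h library and 18.7% the reverse; 11 of the 24 markers other than Gdf9 were of the first kind. Each oocyte transcript was also expressed as a percent of Gdf9 counts in the same library, a step chosen after the data were seen. The ratio removes a library's oocyte content only if Gdf9 message per oocyte stayed constant, which was not tested. All 24 ratios share this denominator and are not independent. On this scale 16 of 24 had all PCI 8 h libraries below all PCI 4 h libraries, 8 overlapped and 0 were above (for each, 3 against 3 allows no exact permutation p under 0.1). The share over all genes was computed in CPM only and not on this scale, so the count does not set oocyte genes apart.

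The zona pellucida genes, which encode the coat of the oocyte, were all lower relative to Gdf9 at 8 h. Zp1 stood at 3.24, 4.01 and 5.75% at PCI 8 h, against 25.0, 24.6 and 23.7% at PCI 4 h. Zp2 stood at 9.71, 10.3 and 16.0% at PCI 8 h, against 47.0, 50.01 and 46.8% at PCI 4 h. Zp3 stood at 4.43, 6.11 and 8.03% at PCI 8 h, against 34.3, 34.2 and 34.9% at PCI 4 h. The 4 h values were nearly equal, PCI 4 h replicate 2 included, and the 8 h values were all far below. Nobox, an oocyte transcription factor gene, was at 0.444, 1.61 and 0.938% at PCI 8 h, against 10.2, 12.2 and 11.2% at PCI 4 h. Npm2, a nuclear chaperone of the egg, was at 1.84, 2.21 and 2.49% at PCI 8 h, against 10.1, 10.3 and 10.3% at PCI 4 h. Nlrp4f, of the oocyte NLRP group, stood at 9.77, 8.13 and 13.4% at PCI 8 h, against 60.2, 54.5 and 63.1% at PCI 4 h. All these groups were separate.

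Other oocyte messages overlapped between the times relative to Gdf9. Bmp15 stood at 103, 78.0 and 88.9% at PCI 8 h, against 87.2, 83.7 and 75.5% at PCI 4 h. Mos, the kinase that holds the egg at metaphase, stood at 11.0, 12.1 and 11.0% at PCI 8 h, against 9.52, 9.86 and 12.5% at PCI 4 h. H1f8, the oocyte linker histone gene, stood at 67.1, 74.8 and 74.2% at PCI 8 h, against 62.5, 60.1 and 76.7% at PCI 4 h. Btg4, a factor of maternal message clearance, was at 47.9, 37.7 and 41.1% at PCI 8 h, against 41.2, 37.7 and 44.2% at PCI 4 h. The same held for Oosp1, Nlrp5, Astl and Khdc3. In CPM, Zp3 (-2.70 ± 0.54, adjusted p = 0.00137) and Nobox (-3.74 ± 0.70, adjusted p = 8.66e-04) were called lower with and without PCI 4 h replicate 2, at log2 fold changes of -1.99 and -2.89 without it. Zp2 (-2.26 ± 0.70, adjusted p = 0.0226) was not called without that library, at -1.49. The libraries were poly(A)-selected, so the amount of such a message and the length of its tail cannot be told apart.

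In the control arm these genes were also lower relative to Gdf9 at 8 h. Zp1 was at 10.3, 7.70 and 13.2% at CTL 8 h, against 23.3, 24.8 and 25.3% at CTL 4 h. Nobox was at 3.77, 0.854 and 3.62% at CTL 8 h, against 9.99, 11.4 and 10.6% at CTL 4 h. The PCI 8 h libraries were all below the CTL 8 h libraries for 9 of 24 markers and all above for 0, with Zp1 among the 9 and Nobox not. The share over all genes was not computed for this comparison.

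**Figure D3:**
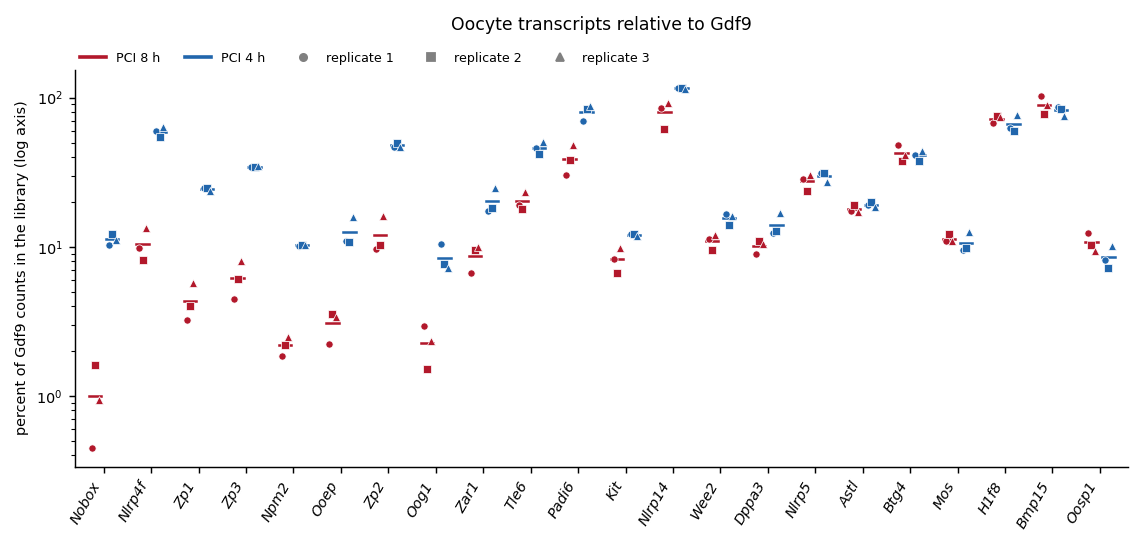
Counts of 22 oocyte markers as a percent of Gdf9 counts in the same PCI library, on a log axis, ordered from the deepest fall at the left. Points are libraries and bars group means, with PCI 8 h left of PCI 4 h; Zp3 is at 4.43 to 8.03% against 34.2 to 34.9%, while H1f8 is at 67.1 to 74.8% against 60.1 to 76.7% (Figla and Khdc3, under 1% of Gdf9, are not drawn).

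The 12 largest rises included Npr1 and Vsir, which were near absent at 4 h. Npr1 (ENSMUSG00000027931, mm39 chr3:90357898-90373173), the receptor for atrial natriuretic peptide, had 12.7, 19.9 and 7.67 CPM in the PCI 8 h libraries, against 0.160, 0.209 and 0.165 CPM in the PCI 4 h libraries (log2 fold change 6.21 ± 0.47 (SE), adjusted p = 4.70e-07). Vsir, an immune checkpoint gene, had 8.36, 9.01 and 7.16 CPM at PCI 8 h, against 0.160, 0.0349 and 0.298 CPM at PCI 4 h (log2 fold change 5.59 ± 0.63 (SE), adjusted p = 1.92e-05). Hdc, the enzyme that makes histamine, had 152, 111 and 129 CPM at PCI 8 h, against 8.52, 1.36 and 16.5 CPM at PCI 4 h (log2 fold change 3.89 ± 0.65 (SE), adjusted p = 3.78e-04). In each the 8 h libraries were many times the highest 4 h library. A call, at least 5 CPM in either group and groups that do not overlap were conditions for this choice. The separation therefore follows from the choice. Igfbp5, an IGF-binding protein gene, had 427, 493 and 169 CPM at PCI 8 h, against 13.5, 6.21 and 43.8 CPM at PCI 4 h (log2 fold change 4.10 ± 0.69 (SE), adjusted p = 4.24e-04). Prss35, a serine protease family gene of the ovary, had 336, 245 and 54.7 CPM at PCI 8 h, against 5.81, 13.0 and 6.75 CPM at PCI 4 h (log2 fold change 4.64 ± 0.69 (SE), adjusted p = 1.69e-04). Dync1i1, a dynein subunit gene, had 194, 244 and 41.7 CPM at PCI 8 h, against 6.67, 14.1 and 5.69 CPM at PCI 4 h (log2 fold change 4.18 ± 0.55 (SE), adjusted p = 7.07e-05). In these last genes PCI 8 h replicate 3 was the lowest of its group by a wide margin. It was the library nearest to PCI 4 h in 59.1% of all called rises and 47.5% of called falls. In turn, PCI 4 h replicate 3 was the library nearest to PCI 8 h in 58.5% of called rises and 67.8% of called falls. Without PCI 4 h replicate 3 the log2 fold changes of Vsir, Hdc and Igfbp5 were 6.30, 4.72 and 5.20.

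The remaining largest rises were Akr1c18, Akr1c14 and Cyp11a1, given above, with Cck, Gas1 and Slc36a2. Cck, the cholecystokinin gene, varied widely, at 1.82, 28.7 and 8.37 CPM at PCI 8 h, against 0.255, 0.244 and 0.992 CPM at PCI 4 h (log2 fold change 4.70 ± 1.15 (SE), adjusted p = 0.00568), and its log2 fold change was 3.34 without PCI 8 h replicate 2 and 5.67 without PCI 4 h replicate 3. Gas1, a Hedgehog co-receptor gene, had 16.5, 32.7 and 8.79 CPM at PCI 8 h, against 0.510, 0.175 and 2.15 CPM at PCI 4 h (log2 fold change 4.35 ± 0.92 (SE), adjusted p = 0.00205). It was at 5.78 on the log2 scale without PCI 4 h replicate 3 and 3.74 without PCI 8 h replicate 2. Slc36a2, a proton-coupled amino acid transporter gene, had 4.16, 5.22 and 6.42 CPM at PCI 8 h, against 0.479, 0.105 and 0.463 CPM at PCI 4 h (log2 fold change 3.89 ± 0.45 (SE), adjusted p = 2.47e-05). With limma voom Cck (adjusted p = 0.348), Gas1 (adjusted p = 0.0932) and Akr1c18 (adjusted p = 0.0540) were not called.

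**Figure D4:**
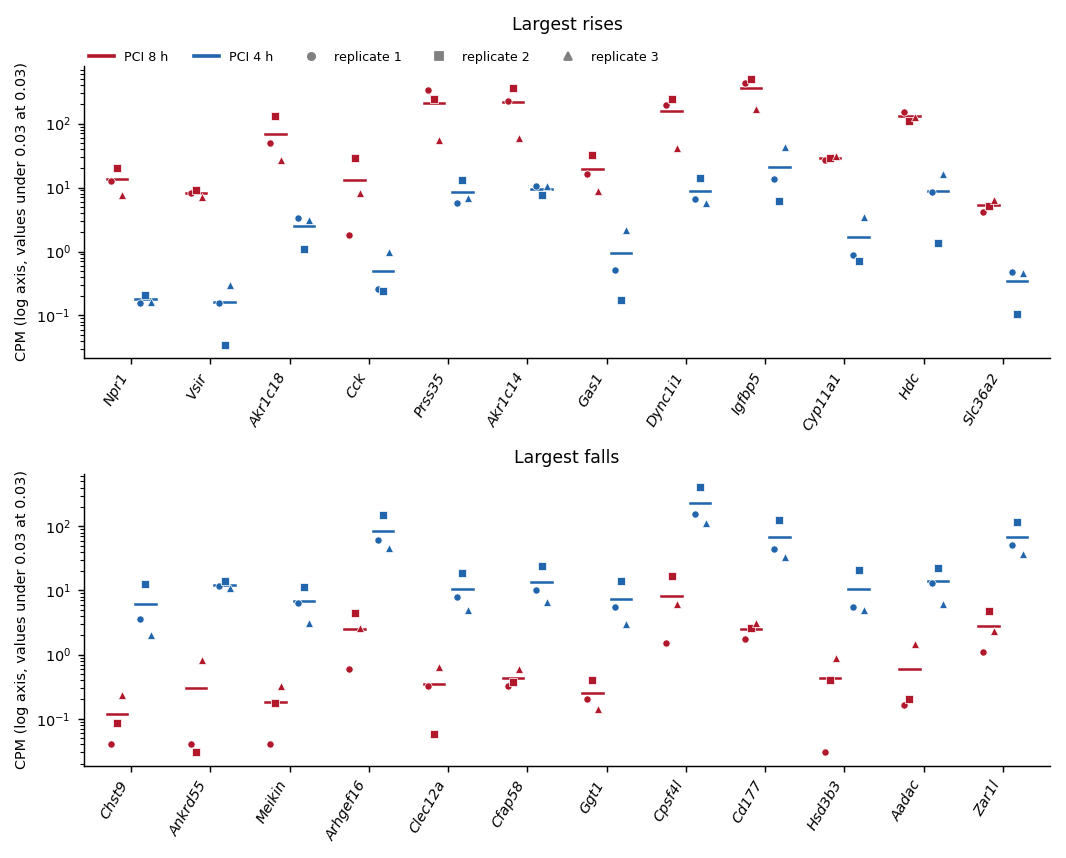
CPM on a log axis of the 12 genes with the largest called rises (upper panel) and the 12 with the largest called falls (lower panel) in each PCI library. At least 5 CPM in either group and no overlap between the groups were conditions of the choice. Points are libraries, shapes replicate numbers and bars group means, PCI 8 h left of PCI 4 h. Npr1 is at 7.67 to 19.9 CPM against 0.160 to 0.210 CPM. PCI 4 h replicate 2 is the highest library in each of the 12 falls, and the share over all called falls was not computed.

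In each of the 12 largest falls, PCI 4 h replicate 2, the library richest in oocyte markers, had the highest value. The share over all called falls or all genes was not computed. The falls were ranked with that library in the PCI 4 h group, so the count does not set these genes apart. They included Zar1l, an oocyte gene related to Zar1, at 1.09, 4.85 and 2.32 CPM at PCI 8 h, against 51.2, 116 and 36.8 CPM at PCI 4 h (log2 fold change -4.60 ± 0.71 (SE), adjusted p = 2.10e-04). Meikin, a kinetochore protein gene of meiosis, had 0.0404, 0.173 and 0.325 CPM at PCI 8 h, against 6.29, 11.4 and 3.11 CPM at PCI 4 h (log2 fold change -5.27 ± 0.88 (SE), adjusted p = 3.99e-04). Cpsf4l, related to an mRNA 3′ processing factor, had 1.49, 16.8 and 6.23 CPM at PCI 8 h, against 158, 412 and 113 CPM at PCI 4 h (log2 fold change -4.78 ± 0.83 (SE), adjusted p = 5.00e-04). Arhgef16, a guanine nucleotide exchange factor gene, had 0.606, 4.39 and 2.60 CPM at PCI 8 h, against 60.6, 148 and 45.8 CPM at PCI 4 h (log2 fold change -5.04 ± 0.73 (SE), adjusted p = 1.38e-04). Groups that do not overlap were a condition for this choice. Without PCI 8 h replicate 2 the log2 fold changes of Zar1l, Cpsf4l and Arhgef16 were -5.33, -5.91 and -5.75, and without PCI 8 h replicate 3 that of Meikin was -5.88.

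The rest were Chst9, Ankrd55, Clec12a, Cfap58, Ggt1, Cd177, Hsd3b3 and Aadac, with log2 fold changes of -4.60 to -5.68. Ankrd55 had 0.0404, 0.0289 and 0.837 CPM at PCI 8 h, against 11.9, 14.1 and 10.9 CPM at PCI 4 h, and Cd177, known from neutrophils, had 1.74, 2.60 and 3.11 CPM at PCI 8 h, against 44.5, 124 and 33.6 CPM at PCI 4 h. Leaving out PCI 4 h replicate 2 kept all 12 called and made the falls more than 1.5-fold smaller in all but Aadac, Ankrd55 and Meikin, for example Chst9 at -4.55 and Cd177 at -3.96. Ankrd55 was at -4.84 without PCI 8 h replicate 2 and -8.34 without replicate 3, and Aadac at -6.21 without replicate 3. The part of oocyte content in these falls was not tested.

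The called genes of the inhibitor and solvent arms were shared in large part. The PCI pair and the CTL pair share no library. In the control arm 2207 genes (12.1%) were higher and 2020 (11.1%) lower at CTL 8 h than at CTL 4 h. Of the genes called higher in the PCI arm 63.5% were also called higher in the CTL arm, which was 64.2% of the CTL list; for lower genes the shares were 53.8% of the PCI list and 73.6% of the CTL list. Calls in opposite directions numbered 9 (higher in PCI, lower in CTL) and 2 (the reverse). Across the 18192 genes the log2 fold changes of the 2 arms had a Pearson r of 0.73 and a Spearman correlation of 0.75, as a description, since genes are not independent replicates.

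The difference of the steps, PCI minus CTL on the log2 scale, was called for 13 genes (0.0715%), 12 of them positive, and 1060 genes had an unadjusted p under 0.05. F3 (ENSMUSG00000028128, mm39 chr3:121517186-121528697), which encodes tissue factor, the starter of coagulation, rose under the inhibitor to 100.4, 80.0 and 56.0 CPM at PCI 8 h, against 16.0, 16.2 and 24.1 CPM at PCI 4 h (log2 fold change 2.07 ± 0.30 (SE), adjusted p = 1.38e-04). In the CTL arm it was called lower with overlapping libraries, with 11.4, 18.6 and 16.9 CPM at CTL 8 h, against 36.3, 31.9 and 18.0 CPM at CTL 4 h, and the steps differed by 2.95 ± 0.42, adjusted p = 0.0173. The CTL call was lost without any single CTL library except CTL 4 h replicate 3. Myc, the growth regulator, had 50.2, 52.2 and 49.0 CPM at PCI 8 h, against 28.5, 30.8 and 20.5 CPM at PCI 4 h, and 38.4, 25.0 and 28.1 CPM at CTL 8 h, against 64.2, 62.3 and 72.4 CPM at CTL 4 h. It rose in the PCI arm and fell in the CTL arm, with no overlap in either, and the steps differed by 2.04 ± 0.33, adjusted p = 0.0305. Ddit4l, an inhibitor of mTOR signalling, rose to 198, 212 and 50.4 CPM at PCI 8 h, against 29.9, 55.9 and 23.1 CPM at PCI 4 h, with overlap, and had 9.36, 15.9 and 12.8 CPM at CTL 8 h, against 45.0, 60.3 and 68.5 CPM at CTL 4 h (difference 4.27 ± 0.66, adjusted p = 0.0305). Sgms2, a sphingomyelin synthase gene, differed by 1.89 ± 0.30, adjusted p = 0.0305, and Kansl1, a chromatin complex gene that fell in the CTL arm, by 1.36 ± 0.23, adjusted p = 0.0418. The one negative difference was Lgalsl, a galectin-like gene (-1.37 ± 0.25, adjusted p = 0.0491). The number called was 0 without PCI 8 h replicate 1 or 2, PCI 4 h replicate 1 or CTL 8 h replicate 3, 45 without PCI 8 h replicate 3, and 1 to 3 without any other library except PCI 4 h replicate 2. Also, 0 genes were called in a fit of the 12 libraries of both steps alone.

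Several large changes under the inhibitor had no called counterpart in the CTL arm but did not pass the test of the difference. Cyp11a1 had 0.516, 3.48 and 0.948 CPM at CTL 8 h, against 1.14, 7.71 and 2.00 CPM at CTL 4 h, and its steps differed by 5.22 ± 1.10, adjusted p = 0.110. The difference of Cyp11a1 was called with the replicate block and with DESeq2 (adjusted p over the alternatives 0.00372 to 0.410). Igfbp5 changed by 0.68 ± 0.66 in the CTL arm and differed by 3.42 ± 0.92, adjusted p = 0.300, and Akr1c14 by 1.02 ± 0.61 and 3.45 ± 0.87, adjusted p = 0.213. That of Akr1c14 was called with DESeq2 and without PCI 8 h replicate 3 (adjusted p over the alternatives 0.00722 to 0.740). Tnfaip6 fell in both arms (-2.86 ± 0.26, adjusted p = 2.28e-06 in the CTL arm). Has2 was called lower in the CTL arm (-1.03 ± 0.35, adjusted p = 0.0381), but not without CTL 8 h replicate 2 or 3 or CTL 4 h replicate 1 or 3. Has2 had 804, 494 and 655 CPM at CTL 8 h, against 1511, 1037 and 1443 CPM at CTL 4 h, so the fall in the PCI arm was numerically the deeper, and the steps differed by -1.70 ± 0.49, adjusted p = 0.341. Without PCI 8 h replicate 3 that difference was called, at -2.36 (adjusted p over the alternatives 0.0225 to 0.830). Ptx3 was not called in the CTL arm (-0.51 ± 0.32, adjusted p = 0.266; difference -1.37 ± 0.45, adjusted p = 0.485). Spp1 rose by 2.96 ± 0.41 on the log2 scale in the CTL arm and Pcsk5 by 1.26 ± 0.31, both called. Pgr had 2 counts over CTL 8 h and 90 over CTL 4 h, a ratio of 0.0243 (95% interval 0.00290 to 0.0905, counting error only).

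**Figure D5:**
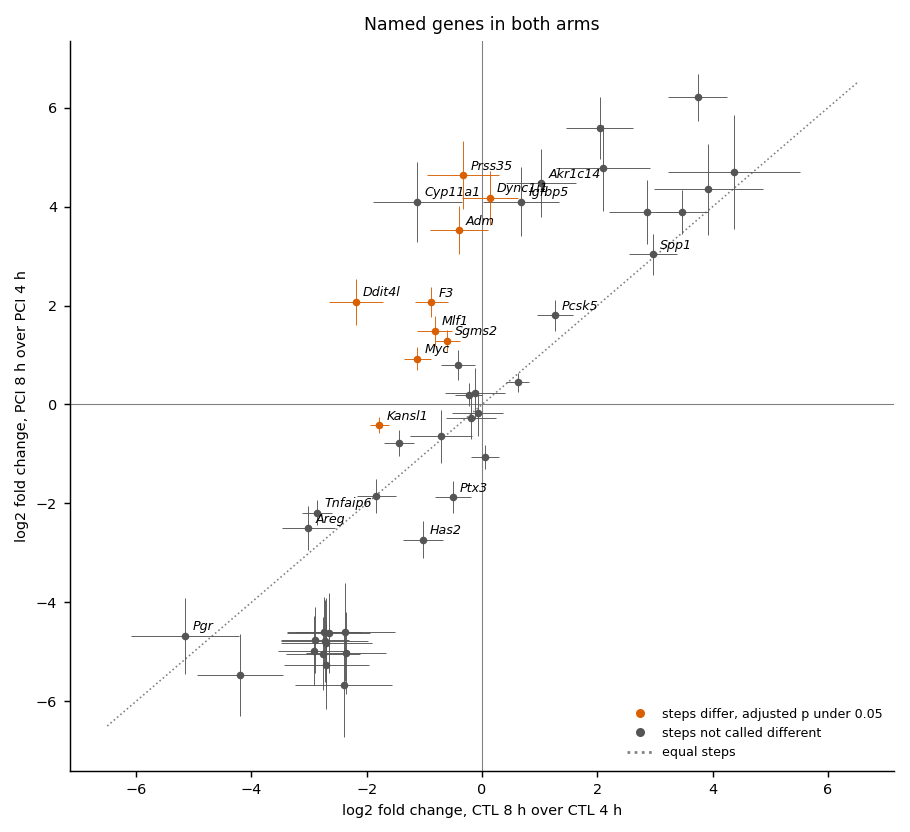
Log2 fold change between 8 and 4 h under the inhibitor (vertical) and under solvent (horizontal) of the panel, the largest rises and falls, plus those ranking first by p for the step difference. Bars are standard errors, the dotted line marks equal steps, and orange points are genes whose steps differ at an adjusted p under 0.05; F3 lies at 2.07 vertically and -0.88 horizontally, while Spp1, at 3.04 and 2.96, lies on the line.

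Most called genes had PCI 12 h means beyond their PCI 8 h means, which was not tested. Of the genes called higher, 69.1% had a PCI 12 h mean above the PCI 8 h mean, and of those called lower, 60.1% had a PCI 12 h mean below it. Between START and 4 h, 38.6% of the called rises had a PCI 4 h mean above that of START, and 51.6% of the called falls a PCI 4 h mean below it. These shares reuse the PCI 8 h and PCI 4 h libraries from which the genes were called. The shares over all genes were not computed, so they are a description only. Cyp11a1 had 79.6, 128 and 280.2 CPM at PCI 12 h, and Npr1 had 77.4, 87.0 and 122 CPM.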

How the data were processed

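The 21 libraries were stranded and poly(A)-selected, per the labels' protocols. The deposited table holds raw counts for 56980 genes, and all 21 of its columns name a sample. The submitters' processing notes name cutadapt, STAR, HTSeq and the mm39 build. Versions, annotation release and the strand setting of counting: not given in the sources used here. Positions of genes span whole genes in mm39, as deposited.

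With edgeR 4.0.16 in R 4.3.3, filterByExpr kept 18192 genes (99.92% or more of each library's counts) and TMM set the scaling. One model with a term for each group covered all 21 libraries, leaving 14 residual degrees of freedom and a biological coefficient of variation of 29.5%. The steps PCI 8 h minus PCI 4 h and CTL 8 h minus CTL 4 h, and their difference, were each put to the robust two-sided quasi-likelihood F test, and p-values were adjusted by Benjamini-Hochberg across all genes. Each SE was derived as the absolute log2 fold change divided by the root of F. A fold against no counts is set against 3 counts, which leaves out counting error in the other group, and intervals cover counting error only. No replicate pair agreed within sampling noise. Alternatives used DESeq2 1.42.0 and limma 3.58.1, other scaling, no filter, a replicate block, an oocyte score, fewer libraries and each library left out. Genes with near-identical copies, such as Akr1c and Hsd3b, are uncertain.

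Named genes were a panel of 18; the 12 largest rises and 12 largest falls with at least 5 CPM and no overlap; up to 4 members of each list by smallest p; and the 10 smallest p of the difference. Other names are marked or follow from a count of 5 or fewer. Some named genes are not reported here. Members, lists and rules were chosen with earlier results of these data known. Promoters are from RefSeq on GRCm38.p6. Figures used matplotlib 3.10.9.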

Additional observations from a re-analysis of the deposited data

Results flagged for a closer look

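For 10 genes named here the step from 4 to 8 h differed between the arms by the test of the difference itself. The differences, PCI step minus CTL step on the log2 scale, were 9.18 for Cemip, 4.96 for Prss35, 4.27 for Ddit4l, 4.04 for Dync1i1, 3.93 for Adm, 2.95 for F3, 2.31 for Mlf1, 2.04 for Myc, 1.89 for Sgms2 and 1.36 for Kansl1. The value for Cemip rests on a group without counts and depends on the prior count, so it is no measure of size. Prss35 had 336, 245 and 54.7 CPM at PCI 8 h, against 5.81, 13.0 and 6.75 CPM at PCI 4 h, and 2.85, 13.1 and 4.30 CPM at CTL 8 h, against 6.59, 11.0 and 7.86 CPM at CTL 4 h. Its PCI 8 h libraries were all above the PCI 4 h libraries, and its CTL libraries overlapped.

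Adm, which encodes the vasodilator adrenomedullin, had 9.89, 8.05 and 5.02 CPM at PCI 8 h, against 0.734, 0.419 and 0.827 CPM at PCI 4 h, and 0.714, 0.711 and 0.438 CPM at CTL 8 h, against 0.552, 1.03 and 0.877 CPM at CTL 4 h. Its PCI 8 h libraries stood above all others of the 4 groups, and the CTL arm was not called (-0.40 ± 0.51, adjusted p = 0.613). Mlf1 had 34.5, 28.5 and 12.6 CPM at PCI 8 h, against 7.46, 11.9 and 7.64 CPM at PCI 4 h, and 6.34, 7.08 and 5.51 CPM at CTL 8 h, against 10.9, 12.3 and 10.3 CPM at CTL 4 h. Kansl1 overlapped in the PCI arm, with 171, 169 and 181 CPM at PCI 8 h, against 239, 285 and 173 CPM at PCI 4 h, and fell in the CTL arm, with 165, 166 and 145 CPM at CTL 8 h, against 639, 448 and 550.3 CPM at CTL 4 h. The adjusted p of these differences lay between 0.0173 and 0.0499. None of the 10 was called with the 12 libraries of both steps alone.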

How the results depend on the processing

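Fitted with only the libraries compared, 1060 genes were called higher and 1603 lower at PCI 8 h, against 2230 and 2762 with all 21 libraries. With 1 library left out, the higher calls numbered 1458 to 2603 and the lower calls 1631 to 3141, both fewest without PCI 4 h replicate 2. In the CTL arm the higher calls numbered 1396 to 2019 and the lower calls 899 to 1617 with 1 library left out, both fewest without CTL 8 h replicate 2, and limma voom called 3286 lower. Of the difference between the steps, 13 genes were called, and 7 with library size alone, 27 with no filter, 54 with the oocyte score covariate, 104 with DESeq2, 1 with limma voom, 0 with the 12 libraries alone and 0 to 45 with 1 library left out. The replicate block gave 2335 higher and 2735 lower calls in the PCI step and 8 of the difference. Deviations of PCI samples with the same number correlated at 0.281, 0.143 and 0.0341. Those with unlike numbers gave -0.212, -0.183, -0.105, -0.0869, 0.0433 and 0.0824. In the CTL arm same numbers gave 0.0707, -0.153 and 0.0623, and unlike numbers -0.247 to 0.206. The sources used here do not say what samples with the same number share, and the main model assumes no pairing. The mitochondrial share ranged over -0.19 to 0.11 (log2) with 1 library left out and turned to -0.13 and -0.19 without PCI 8 h replicate 1 and PCI 4 h replicate 2. With the oocyte score as a covariate 1878 genes were called higher and 1981 lower in the PCI step. Of these, 1166 and 1464 were also called in that direction without the covariate. The oocyte score, built from the oocyte markers themselves, turned the PCI step of Gdf9 to 1.08, Bmp15 to 1.22, Nlrp5 to 1.02, Dppa3 to 0.49, Mos to 1.07, H1f8 to 1.08, Padi6 to 0.075, Khdc3 to 0.19, Nlrp14 to 0.62, Kit to 0.51, Btg4 to 0.98, Wee2 to 0.50, Astl to 1.13 and Ccl2 to 0.31, and the CTL step of Gdf9 to 0.64 and Bmp15 to 0.75. With 1 library left out, the CTL step of Cyp11a1 lay between -2.28 and 0.10 and that of Akr1c14 between -0.025 and 1.44, and the difference of Cck between -1.04 and 1.30. The cause of these shifts was not tested. Over the 204 genes whose PCI step was recomputed, 2847 recomputed values kept their side of the threshold, 159 lost the call, 39 gained one and 14 turned. Of the 2847, 26 that were called in neither fit changed sign, among them Gdf9 at 0.45 and Bmp15 at 0.55 without PCI 4 h replicate 2. The count of oocyte markers relative to Gdf9 was added after seeing the data.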

Other observations

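The counts of the lists below are to be read against the 12.3% of all genes called higher and the 15.2% called lower, and several, such as those of the Notch, Hedgehog and IL-6 lists, lie near these shares. Of 14 genes of the IGF system 4 rose and 3 fell. The binding protein gene Igfbp4 had 512, 460.4 and 673 CPM at PCI 8 h, against 73.2, 16.6 and 97.0 CPM at PCI 4 h (log2 fold change 3.14 ± 0.49 (SE), adjusted p = 2.53e-04). Its relative Igfbp6 had 45.2, 38.0 and 44.7 CPM at PCI 8 h, against 7.59, 7.16 and 15.0 CPM at PCI 4 h (log2 fold change 2.10 ± 0.32 (SE), adjusted p = 2.05e-04). Both were well above the 4 h range in every 8 h library. Pappa, a protease that cleaves IGF-binding proteins, was called higher (1.20 ± 0.32, adjusted p = 0.0105), but not without PCI 4 h replicate 1. The falls of the list numbered 0 without PCI 8 h replicate 1 and 1 without any other single PCI library except PCI 4 h replicate 3.

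Of 20 WNT pathway genes 4 rose, all of them receptors, Fzd1, Fzd4, Lgr4 and Lgr5, and 1 fell. Fzd4 was not called with limma voom. Fzd1 had 129.6, 161 and 58.1 CPM at PCI 8 h, against 11.9, 9.39 and 20.8 CPM at PCI 4 h (log2 fold change 3.05 ± 0.37 (SE), adjusted p = 3.86e-05). Lgr5 had 10.3, 20.5 and 5.44 CPM at PCI 8 h, against 2.84, 1.82 and 1.16 CPM at PCI 4 h (log2 fold change 2.64 ± 0.44 (SE), adjusted p = 4.00e-04), and 2.02 on the log2 scale without PCI 8 h replicate 2. The rises numbered 2 without PCI 8 h replicate 1, and the falls 0 without that library, PCI 8 h replicate 2 or PCI 4 h replicate 1 or 3. Of 10 Hedgehog genes 2 rose and 1 fell. Ptch1, receptor and target of the signal, had 75.4, 69.6 and 52.5 CPM at PCI 8 h, against 23.7, 12.2 and 25.2 CPM at PCI 4 h (log2 fold change 1.69 ± 0.27 (SE), adjusted p = 2.70e-04). The Hedgehog falls numbered 0 without PCI 8 h replicate 1 or 3 or PCI 4 h replicate 2 and 2 without PCI 4 h replicate 3. Of 12 Notch genes 0 rose and 2 fell. The ligand gene Jag1 had 329, 301 and 523 CPM at PCI 8 h, against 1730, 1615 and 1068 CPM at PCI 4 h (log2 fold change -1.94 ± 0.36 (SE), adjusted p = 8.26e-04). There was 1 Notch fall without PCI 8 h replicate 1 or 2 or PCI 4 h replicate 1, and there were 2 rises without PCI 4 h replicate 3.

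Of 14 retinoid genes 2 rose and 5 fell. Aldh1a2, which makes retinoic acid, had 2.14, 4.56 and 4.88 CPM at PCI 8 h, against 20.6, 56.7 and 14.8 CPM at PCI 4 h (log2 fold change -2.99 ± 0.51 (SE), adjusted p = 4.61e-04). It was highest in PCI 4 h replicate 2, and without that library its log2 fold change was -2.18. Dhrs3, whose enzyme turns retinal back into retinol, had 33.3, 17.5 and 28.5 CPM at PCI 8 h, against 4.98, 9.92 and 8.67 CPM at PCI 4 h (log2 fold change 1.75 ± 0.31 (SE), adjusted p = 6.15e-04). The list had 1 rise and 3 falls without PCI 8 h replicate 1. Of 12 genes of gap junctions and cGMP signalling 1 rose and 3 fell. Gja4, the gap junction gene of the oocyte, had 6.87, 24.5 and 16.3 CPM at PCI 8 h, against 149, 361 and 99.9 CPM at PCI 4 h (log2 fold change -3.67 ± 0.61 (SE), adjusted p = 3.86e-04), and -2.95 on the log2 scale without PCI 4 h replicate 2. Nppc, the natriuretic peptide gene of meiotic arrest, had 0.969, 0.981 and 0.883 CPM at PCI 8 h, against 2.52, 2.76 and 4.23 CPM at PCI 4 h (log2 fold change -1.74 ± 0.36 (SE), adjusted p = 0.00186). Its 8 h libraries were nearly equal. The gap junction list had 2 rises without replicate 3 of either PCI group. Of 24 genes of hyaluronan precursor supply and heparan sulfate 9 rose and 2 fell, with 5 rises without PCI 4 h replicate 2. Hs6st2, a heparan sulfate sulfotransferase gene, had 95.4, 75.5 and 65.5 CPM at PCI 8 h, against 15.2, 10.2 and 20.3 CPM at PCI 4 h (log2 fold change 2.37 ± 0.27 (SE), adjusted p = 2.47e-05).

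Of 19 genes of the BCL2 family and p53 response 6 rose and 2 fell, with 1 fall without PCI 8 h replicate 1 or 2 or PCI 4 h replicate 1 or 3. Sesn1, a p53 target, had 63.7, 65.8 and 51.6 CPM at PCI 8 h, against 14.1, 7.02 and 19.9 CPM at PCI 4 h (log2 fold change 2.14 ± 0.30 (SE), adjusted p = 1.25e-04). Of 18 NRF2 and glutathione genes 4 rose and 3 fell, 2 and 1 of them without PCI 8 h replicate 1 or 3, and 2 rose without PCI 4 h replicate 2. Srxn1, an NRF2 target, had 54.6, 50.5 and 53.8 CPM at PCI 8 h, against 211, 148 and 164 CPM at PCI 4 h (log2 fold change -1.72 ± 0.24 (SE), adjusted p = 1.20e-04). Of 21 genes of protein folding and the unfolded protein response 2 rose and 3 fell. Chac1, which degrades glutathione, had 2.75, 2.45 and 3.77 CPM at PCI 8 h, against 15.5, 14.9 and 16.3 CPM at PCI 4 h (log2 fold change -2.39 ± 0.33 (SE), adjusted p = 1.07e-04). The falls of that list numbered 1 without any single PCI library except PCI 8 h replicate 3, and the rises 1 without PCI 8 h replicate 1 or 3 or PCI 4 h replicate 2. Of 16 NF-kB and interferon genes 4 rose and 2 fell, with 2 rises without PCI 8 h replicate 1 or PCI 4 h replicate 2 and 1 fall without PCI 8 h replicate 1 or 2 or PCI 4 h replicate 3.

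Of 15 genes of the IL-6 family, IL-1 and chemokines 1 rose and 2 fell. Il11 was called lower (-1.96 ± 0.45, adjusted p = 0.00360), and was at -2.98 on the log2 scale without PCI 8 h replicate 3. It was not called with only the 6 libraries compared (adjusted p = 0.0603). There was 1 fall without PCI 8 h replicate 1 and 0 rises without PCI 4 h replicate 2. Of 16 amino acid transporter genes 4 rose, 2 of them without PCI 4 h replicate 2, and 2 fell, 1 of them without PCI 8 h replicate 1 or 2 or PCI 4 h replicate 1. Slc43a2 had 6.22, 6.87 and 6.23 CPM at PCI 8 h, against 1.31, 1.397 and 0.827 CPM at PCI 4 h (log2 fold change 2.45 ± 0.37 (SE), adjusted p = 1.93e-04). Of 11 unexpanded cumulus genes 1 rose and 2 fell. Fshr, the FSH receptor gene, had 10.7, 10.9 and 9.39 CPM at PCI 8 h, against 30.1, 19.0 and 15.9 CPM at PCI 4 h (log2 fold change -1.07 ± 0.29 (SE), adjusted p = 0.0103). It was not called without PCI 4 h replicate 1, at -0.76, where the list had 0 falls. The list had 1 fall without PCI 8 h replicate 1 or 2, and 2 rises without PCI 4 h replicate 3. Of 11 mural granulosa and luteal genes 2 rose, Cyp11a1 and Prlr, with 7 rises without PCI 4 h replicate 3 and 1 without replicate 1 of either PCI group. Prlr was not called with limma voom.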
